A study of Homo sapiens with 4 samples.

Results

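The crosslink sites of 7 amino acid transporter genes were examined in an individual-nucleotide resolution crosslinking and immunoprecipitation (iCLIP) experiment on PDCD4, an RNA-binding protein known as a suppressor of translation and of tumours. The genes were SLC7A5, SLC3A2, SLC7A11, SLC7A1, SLC1A5, SLC38A1 and SLC38A2. They were chosen by name, as every row of the 2 deposited site lists whose label holds exactly that symbol, and are 7 of the 14416 genes with a listed site. In iCLIP, RNA is crosslinked to protein by UV light, the protein is immunoprecipitated, and the ends of the cDNAs made from the attached RNA mark the contacts. MCF10A cells, an established, non-transformed human breast epithelial line of wild-type genotype, were immunoprecipitated with a PDCD4 antibody (2 replicates) or with isotype control IgG (2 replicates), from cells grown in the same medium. Each deposited list merges the replicates of 1 immunoprecipitation, so there is no spread between replicates and no test between PDCD4 and IgG could be run. The intervals given here are 95% intervals for counting error only. The abundance of each RNA was not measured here, and its part in the values below was not tested.

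SLC7A5 (LAT1) exchanges glutamine inside the cell for large neutral amino acids such as leucine, and it reaches the plasma membrane only as a heterodimer with SLC3A2, the glycosylated heavy chain also called 4F2hc or CD98. SLC7A11 (xCT) pairs with the same heavy chain and exchanges cystine for glutamate. SLC1A5 (ASCT2), SLC38A1 and SLC38A2 (SNAT1 and SNAT2) carry glutamine and other small neutral amino acids into the cell, whereas SLC7A1 (CAT1) carries the cationic amino acids arginine and lysine. Leucine imported in this way is known to feed the activation of mTORC1, and scarcity of amino acids is known to raise the expression of several of these transporters through ATF4.

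The score of a site is the number of cDNAs counted at that single nucleotide. The PDCD4 list held 158922 sites and 409308 cDNAs, and the IgG list 111361 sites and 276139 cDNAs. The labelled cell type was checked with markers. All 9 epithelial genes looked for had a site, from 3 PDCD4 cDNAs in KRT14 to 808 in KRT7. Of these, 7 had at least 20 cDNAs over both lists. In contrast, 0 of 7 markers of blood, endothelial, stromal and liver cells were listed in either immunoprecipitation.

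The sequences at some of the strongest PDCD4 sites show where on these transcripts the contacts lay. Each is 30 nt of GRCh38 on the strand of the gene, 5′ to 3′, with the crosslinked nucleotide in capitals. For SLC7A5 the sites with 10 or more cDNAs are given, together with a further coding site that had 8. The first 2 lay in the 3′UTR, 2845 and 336 nt past the stop codon. They had 13 and 12 cDNAs, and the first was the highest score among all sites of the 7 genes.
SLC7A5 3′UTR, 13 cDNAs, chr16:87830111-87830140 (minus strand): ggctgggaccttcttTattctgtgttaatg
SLC7A5 3′UTR, 12 cDNAs, chr16:87832620-87832649 (minus strand): caccactaagatgatTttttaaggagctgg
SLC7A5 intron 2, 10 cDNAs, chr16:87844221-87844250 (minus strand): ggctgtgcgtttgctTtcatggcagctcca
SLC7A5 exon 2, 10 cDNAs, chr16:87851812-87851841 (minus strand): acggccgtgaactgcTacagcgtgaaggcc
SLC7A5 exon 2, 8 cDNAs, chr16:87851828-87851857 (minus strand): ctccacagtgctgctCacggccgtgaactg
SLC7A5 exon 1, 10 cDNAs, chr16:87869220-87869249 (minus strand): catcgtggggaccatTatcggctcgggcat
The exon 1 site falls in codon 63, and the exon 2 sites in codons 188 and 182, of the 508 codons of the MANE Select transcript (stop codon included). Within 15 nt of these sites the IgG list held 5 sites with 12 cDNAs at the most downstream 3′UTR site and none at the others. The 30 nt that follow the exon 1 site occur at 2 places in the genome, the other being the SLC7A5P1 pseudogene on chromosome 16, where neither list has a site, and the assignment of reads between these copies is uncertain. The other 5 sites are followed by 30 nt found at a single place.

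For the other genes, 1 of the 3 sites of SLC1A5 with more than 5 cDNAs is shown, which is the one in coding sequence and not its highest, with both such sites of SLC7A1 and the highest site of SLC3A2. These are the genes in which the PDCD4 list but not the IgG list had sites of this size.
SLC1A5 exon 4, codon 231, 6 cDNAs, chr19:46782500-46782529 (minus strand): ggaggggatgaacatCctgggcttggtagt
SLC7A1 3′UTR, 7 cDNAs, chr13:29513346-29513375 (minus strand): taagttagggcataaCattaacttggaaat
SLC7A1 3′UTR, 6 cDNAs, chr13:29512990-29513019 (minus strand): ggaggagggatgtggGcattttggacacca
SLC3A2 3′UTR, 9 cDNAs, chr11:62888690-62888719 (plus strand): ctgacttcagcctgaCatggacccactacc
The SLC3A2 site lies 12 nt past the stop codon. The IgG list had no site within 15 nt of any of these 4 except the first SLC7A1 site, where it had 1 site with 2 cDNAs. The highest PDCD4 scores of the remaining genes were 6 cDNAs at 1 site of SLC38A1, 5 at each of 2 sites of SLC38A2 and 3 at each of 5 sites of SLC7A11, which are not printed.

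Among the 7 genes, SLC7A5 carried most of the crosslinks. It had 1017 cDNAs at 323 sites for PDCD4 and 351 cDNAs at 122 sites for IgG, which is 24.8 and 12.7 cDNAs per 10000 of each list. By summed score, without regard to length, SLC7A5 ranked 6 for PDCD4 and 26 for IgG, so that it stood high in both lists. It held 59.9% of the 1699 PDCD4 cDNAs of the 7 genes and 41.4% of their 848 IgG cDNAs. The log2 ratio of its shares (PDCD4 over IgG, with 1 cDNA added to each sum) was 0.96, with an interval of 0.79 to 1.15. That ratio was above those of 83.1% of the 7305 genes with at least 20 cDNAs over both lists.

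SLC3A2, the heavy chain (ENSG00000168003), had 88 PDCD4 cDNAs at 35 sites and 38 IgG cDNAs at 17 sites. Its log2 ratio was 0.62 (0.08 to 1.23). SLC7A11, the cystine exchanger (ENSG00000151012), had 48 and 22 cDNAs, a log2 ratio of 0.52 (-0.20 to 1.36). SLC7A5, its heavy chain and the other light chain were thus all on the PDCD4 side, but the interval of SLC7A11 included 0.

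The glutamine carriers lay on both sides of equal shares. SLC1A5 (ENSG00000105281) had 43 PDCD4 and 18 IgG cDNAs, at 10 and 6 sites, and a log2 ratio of 0.64 (-0.14 to 1.57). SLC38A1 (ENSG00000111371) had 211 and 195 cDNAs and a log2 ratio of -0.45 (-0.74 to -0.17). SLC38A2 (ENSG00000134294) had 66 and 65 cDNAs and a log2 ratio of -0.55 (-1.06 to -0.03). Both SLC38 genes therefore took a smaller share of the PDCD4 list than of the IgG list. The arginine carrier SLC7A1 (ENSG00000139514) had 226 and 159 cDNAs, and its log2 ratio of -0.06 (-0.36 to 0.24) lay near equal shares.

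**Figure D1:**
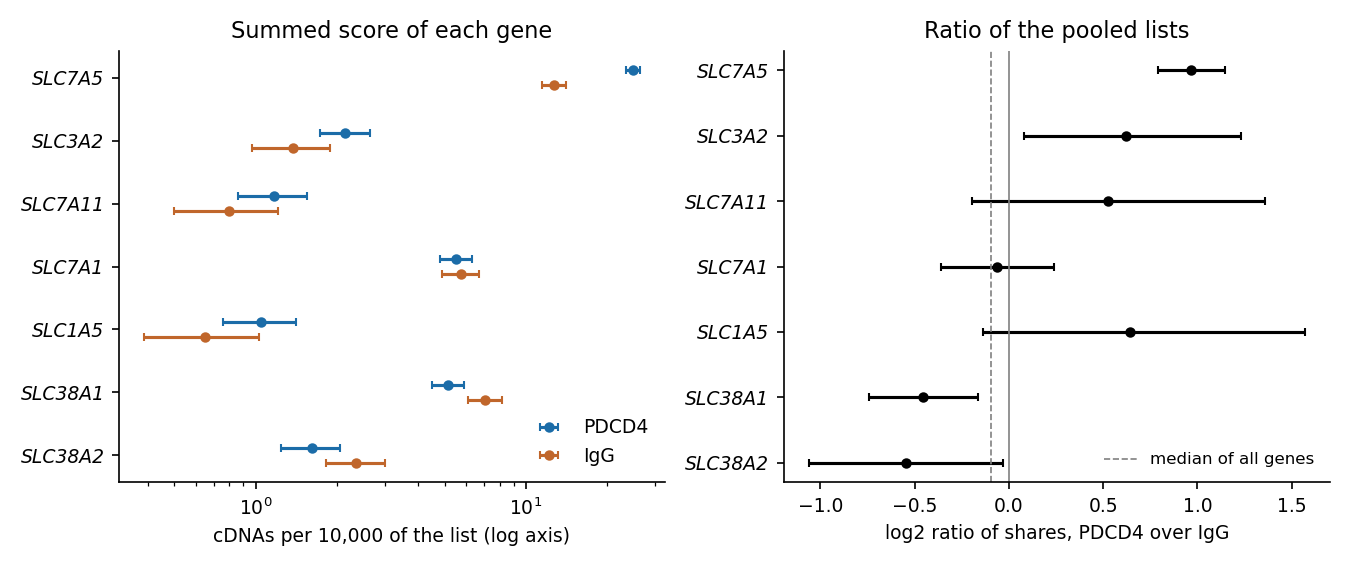
Summed scores of the 7 genes. Left, cDNAs per 10000 of the list (log axis) in the PDCD4 (blue) and IgG (orange) lists, with exact Poisson 95% intervals; right, log2 ratio of the shares with its 95% counting interval, a solid line at 0 and a dashed line at the median of all genes (-0.10). SLC7A5 lies apart from the other 6 genes in both lists, and both SLC38 genes lie below 0.

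A log2 ratio above 0 was found for 4 of the 7 genes, beside 46.2% of all 7305 genes. An interval wholly above 0 was found for 2 of them, SLC7A5 and SLC3A2 (20.1% of all genes), and an interval wholly below 0 for the 2 SLC38 genes. The share of all genes with an interval wholly below 0 was not computed. No member passed 2-fold in either direction, which 16.4% of all genes did upwards and 16.1% downwards. The median log2 ratio was 0.52 over the 7 genes and -0.10 over all genes. Summed over the 7 genes the log2 ratio was 0.43 (0.32 to 0.56), and without SLC7A5, with 682 against 497 cDNAs, it was -0.11 (-0.28 to 0.06). Without SLC7A5 the interval of the sum therefore included 0.

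The genes were also set against each other in all 21 pairs, with intervals that are not adjusted for their number. The log2 ratio of SLC7A5 was higher than those of SLC7A1, SLC38A1 and SLC38A2, by 1.03 (0.69 to 1.37), 1.42 (1.09 to 1.75) and 1.51 (0.99 to 2.04). It could not be separated from that of its partner SLC3A2, where the difference was 0.32 (-0.25 to 0.90), nor from SLC7A11 (0.41, -0.34 to 1.16) or SLC1A5 (0.28, -0.53 to 1.09). In total 10 pairs had an interval that left out 0, each with SLC7A1, SLC38A1 or SLC38A2 as the lower gene.

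Sites with more than 5 cDNAs, the threshold named in the study's methods, were found for 5 of the 7 genes in the PDCD4 list, where 7.51% of all genes with a site and 13.4% of those with at least 20 cDNAs had one. In the IgG list 2 of the 7 genes had such a site (4.18% and 7.68%). SLC7A5 had 22 of these sites with 170 cDNAs for PDCD4 and 4 with 24 cDNAs for IgG, none of the latter with over 6 cDNAs. SLC1A5 had 3 sites with 21 cDNAs among only 10 PDCD4 sites, which gave it the highest mean score of the 7 genes, 4.30 cDNAs per site against 3.15 for SLC7A5. SLC7A1 had 2 such PDCD4 sites with 13 cDNAs and SLC3A2 had 1 with 9, and the IgG list had none in these 3 genes. SLC38A1 had 1 site of 6 cDNAs in each list, and SLC7A11 and SLC38A2 had none in either. Just at and above the threshold, the 7 genes had 40 PDCD4 sites with 5 cDNAs and 13 with 6, against 18 and 5 in the IgG list.

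Per length, SLC7A5 exons also stood apart. Its 558 exonic PDCD4 cDNAs made 121 per kb of exon (111 to 132), and its 238 IgG cDNAs made 51.7 per kb (45.3 to 58.7). SLC3A2 followed in the PDCD4 list with 20.6 per kb (16.2 to 25.8). SLC38A1 with 16.1, SLC7A1 with 15.4, SLC1A5 with 12.9 and SLC38A2 with 12.8 had intervals that overlap with one another, and SLC7A11 was lowest with 3.94 (2.79 to 5.41). In the IgG list the order differed, with SLC38A1 at 12.7 and SLC38A2 at 11.8 per kb after SLC7A5, then SLC3A2 at 5.49, SLC7A1 at 5.13, SLC1A5 at 4.50 and SLC7A11 at 1.56. These levels carry the abundance of each transcript as well as its crosslinking.

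The ratio differed between regions of the same transcript. In SLC7A5, introns had 459 PDCD4 and 113 IgG cDNAs, a log2 ratio of 1.44 (1.15 to 1.76). Its coding sequence had 129 and 40 cDNAs (1.10, 0.60 to 1.67) and its 3′UTR 425 and 198 (0.53, 0.29 to 0.78). Over all genes the introns were lowest and not highest, with a median log2 ratio of 1.12 for coding sequence, 0.18 for 3′UTRs and -0.52 for introns, and a ratio above 2-fold for 53.8%, 23.3% and 10.6% of the genes tested. The coding sequence of SLC7A5 therefore lay close to the median of its class, while its introns lay far above theirs. When only exonic sites were counted, over the exonic total of each list, the log2 ratio of SLC7A5 was 0.063 (-0.15 to 0.29). Over the whole list totals, the exonic sites of 1 of the 7 genes, SLC3A2, passed 2-fold, beside 33.3% of the genes tested.

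The 3′UTRs separated the other genes. SLC1A5 had 23 PDCD4 and 3 IgG cDNAs there, a log2 ratio of 2.02 (0.64 to 4.75), whereas its coding sequence had 14 and 12. SLC7A1 had 99 and 28 cDNAs in its 3′UTR (1.22, 0.64 to 1.91) and 112 and 121 in its introns (-0.68, -1.06 to -0.30), so that the near equal shares of the whole gene were the sum of a higher 3′UTR and lower introns. The 3′UTR of SLC3A2 had 16 PDCD4 cDNAs at 4 sites and 0 IgG cDNAs, and its exons as a whole had 75 and 20 (1.29, 0.61 to 2.13). SLC38A2 had 46 and 51 cDNAs in its 3′UTR (-0.71, -1.32 to -0.11), below equal shares. SLC38A1 had 138 and 109 (-0.23, -0.60 to 0.15), and SLC7A11 had 32 and 13 (0.67, -0.24 to 1.79), 2 ratios whose intervals included 0.

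**Figure D2:**
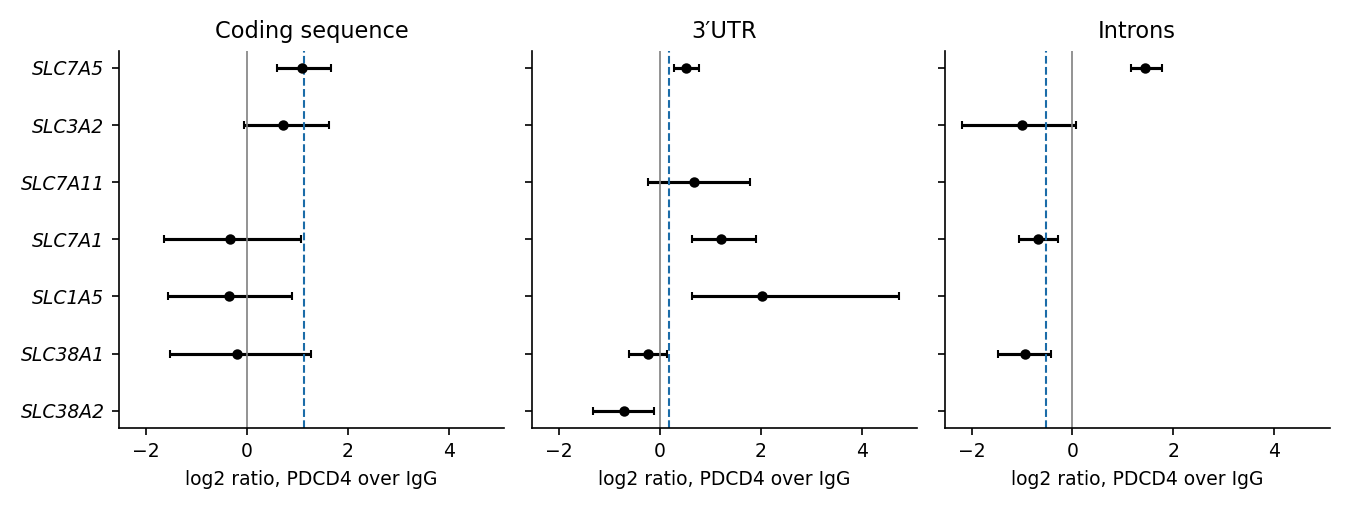
Log2 ratio of shares, PDCD4 over IgG, for coding sequence, 3′UTR and introns of each gene with at least 20 cDNAs in that region over both lists. Bars are 95% counting intervals, the solid line is at 0 and the dashed line marks the median of all genes for that region (1.12, 0.18 and -0.52). SLC7A5 is the 1 gene of the 4 in the intron panel that lies above 0, and SLC1A5 and SLC7A1 lie highest in the 3′UTR panel.

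Coding sequence held 13.0% of the 594 PDCD4 sites of the 7 genes (Wilson interval 10.5 to 15.9) and 10.4% of their 327 IgG sites (7.54 to 14.2), compared with 20.9% and 9.74% of all sites in the lists. The nucleotide at these coding sites in the PDCD4 list was C in 50.6% of 77 sites (39.7 to 61.5) and T in 26.0%, beside 33.2% and 34.4% over all 33278 coding PDCD4 sites. In SLC7A5, 21 of 39 coding PDCD4 sites were at C (53.8%, 38.6 to 68.4), as were 4 of 15 coding IgG sites (26.7%, 10.9 to 52.0). C makes up 33.9% of its 1524 nt of coding sequence. Over all regions T was the most frequent nucleotide at member sites (45.5%), close to the 46.7% of the whole PDCD4 list.

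The introns of SLC7A5 differed from one another. The gene spans chr16:87830023-87869507 (ENSG00000103257, minus strand) and its MANE Select transcript has 10 exons. Intron 2 (chr16:87841156-87851723, 10568 nt) had 332 PDCD4 cDNAs at 105 sites and 38 IgG cDNAs at 11 sites, a log2 ratio of 2.53 (2.07 to 3.08). Intron 1 (chr16:87851850-87868884) is longer, with 17035 nt, but had 40 PDCD4 cDNAs at 12 sites and 66 IgG cDNAs at 23 sites, a log2 ratio of -1.28 (-1.89 to -0.70). The 2 neighbouring introns of the same transcript thus differed by 3.85 on the log2 scale (3.10 to 4.59). Introns 3 to 9 together, 7326 nt, had 87 and 9 cDNAs, a log2 ratio of 2.57 (1.71 to 3.88), similar to that of intron 2. The first intron was thus below equal shares, and the second, and the sum of the rest, were above.

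Intron 2 alone gave 32.6% of the PDCD4 cDNAs of SLC7A5 and 10.8% of its IgG cDNAs, and 10 of its 22 sites with more than 5 cDNAs. No IgG site there exceeded 5 cDNAs. Among 182029 introns of MANE Select transcripts it ranked 9 by PDCD4 sum, and its log2 ratio was above those of 96.9% of the 3492 introns with at least 20 cDNAs over both lists, of which 13.3% passed 2-fold and 32.2% were above 0. Without intron 2, SLC7A5 had 685 and 313 cDNAs and a log2 ratio of 0.56 (0.37 to 0.76). The introns of all 7 genes without it had 321 and 304 (-0.49, -0.72 to -0.26), close to the -0.52 median of the introns of all genes.

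The crosslinks were spread along the whole of intron 2 and did not form a single peak. From its 5′ to its 3′ end, 5 successive stretches of equal length held 56, 96, 75, 56 and 49 PDCD4 cDNAs and 4, 10, 11, 7 and 6 IgG cDNAs. The first PDCD4 site was 235 nt and the last 10269 nt into the intron, and the widest gap between neighbouring sites was 734 nt. The mean score was 3.16 cDNAs per site, against 3.45 at the 11 IgG sites, so that the lists differed in the number of sites more than in cDNAs per site. The strongest site of the intron, shown above with 10 cDNAs, had no IgG site within 15 nt. GC content was 59.6% in intron 2 and 55.7% in intron 1.

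**Figure D3:**
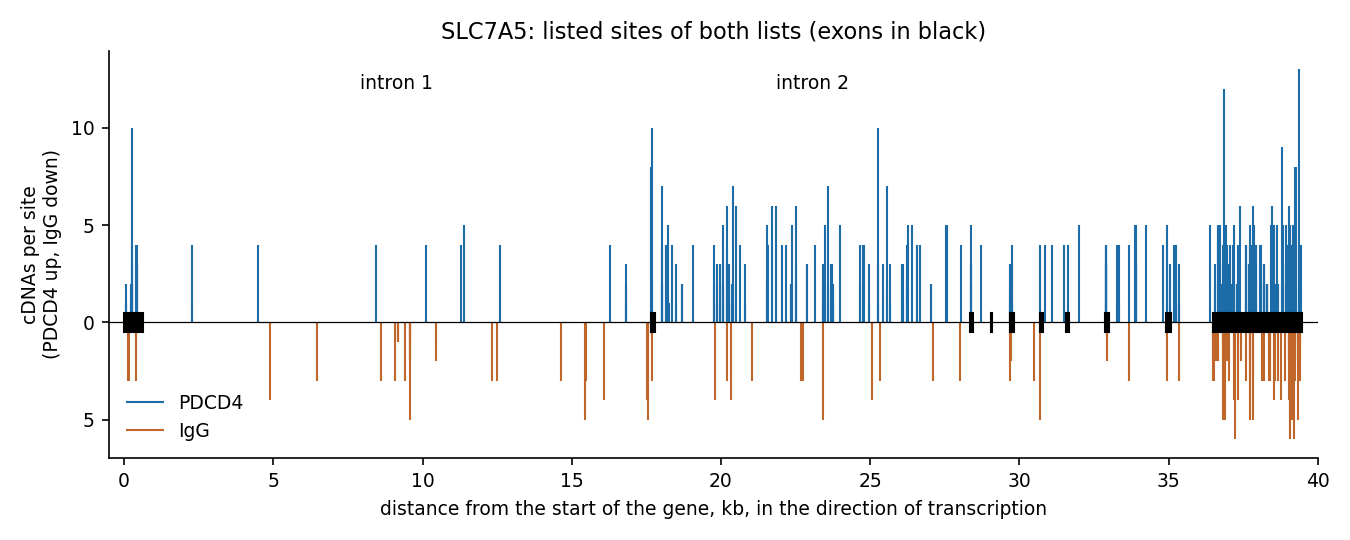
Listed sites along SLC7A5. The horizontal axis is the distance from the start of the gene in kb, vertical lines give the cDNAs of each site (PDCD4 upwards in blue, IgG downwards in orange), and black boxes are exons. PDCD4 sites are dense from exon 2 onwards (105 in intron 2), while intron 1 has 12 PDCD4 and 23 IgG sites.

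The exons on either side of intron 1 were both higher in the PDCD4 list. Exon 2, which is 126 nt long, had 20 PDCD4 cDNAs at 3 sites, of which 2 are printed above, and 3 IgG cDNAs at 1 site (log2 ratio 1.82, 0.42 to 4.56). Exon 1 had 44 and 11 cDNAs (1.34, 0.46 to 2.53). Exon 10, which holds the 3′UTR, had 425 and 206 (0.47, 0.23 to 0.72), so that the ratio was lower there than in intron 2. Along the 2947 nt of 3′UTR, 5 successive stretches of equal length had 110, 58, 79, 57 and 121 PDCD4 cDNAs and 39, 24, 28, 27 and 80 IgG cDNAs. Of the 4 IgG sites with more than 5 cDNAs in SLC7A5, 3 lay in the last stretch, which also holds the strongest PDCD4 site.

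The introns of SLC7A1 also differed from one another. Its intron 1 had 55 PDCD4 and 83 IgG cDNAs (-1.15, -1.68 to -0.65) and intron 2 had 7 and 17 (-1.74, -3.36 to -0.50). Intron 5 (chr13:29524254-29530537, 6284 nt) had 37 PDCD4 cDNAs at 15 sites and 2 IgG cDNAs at 1 site, a log2 ratio of 3.10 (1.69 to 6.74). In SLC38A1, intron 1 had 21 and 37 cDNAs (-1.36, -2.23 to -0.57). The first introns of these 3 genes were therefore all below equal shares. Most introns were too, as 32.2% of the 3492 tested lay above 0, with a median log2 ratio of -0.57. In SLC7A5, introns 8 and 9 had 43 and 23 PDCD4 cDNAs against 3 IgG cDNAs each (2.89, 1.63 to 5.61, and 2.02, 0.64 to 4.75). No other intron of the 7 genes had 20 cDNAs over both lists.

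**Figure D4:**
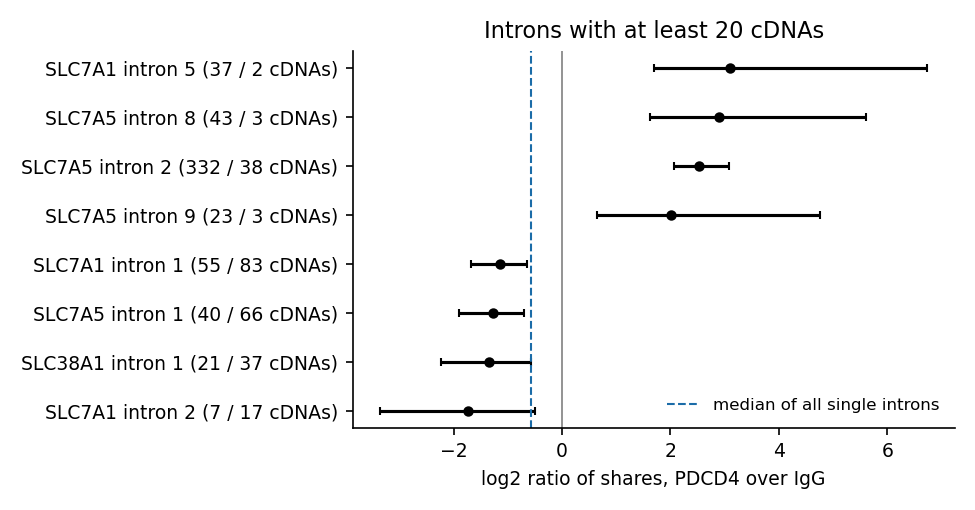
Log2 ratio of shares, PDCD4 over IgG, for the 8 introns of the 7 genes with at least 20 cDNAs over both lists, with 95% counting intervals and the PDCD4 and IgG cDNAs in brackets. The solid line is at 0 and the dashed line is the median of all introns tested (-0.57). Intron 2 of SLC7A5 has the narrowest interval, and the first introns of SLC7A5, SLC7A1 and SLC38A1 lie below 0.

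Other genes of amino acid supply gave the context. Of 37 further amino acid transporters looked for, 17 had a site and 9 had at least 20 cDNAs. None of these 9 passed 2-fold towards PDCD4, beside 16.4% of all 7305 genes. Towards IgG 2 passed it (SLC7A2 and SLC38A6), beside 16.1%, and the median log2 ratio of the 9 was 0.10. None of the 17 had a site with more than 5 cDNAs. Of all genes with a site, 7.51% had one of this size for PDCD4 and 4.18% for IgG. The largest PDCD4 sums were in SLC6A6, the taurine carrier (111 and 55 cDNAs, 0.43), SLC38A10 (98 and 71, -0.11) and SLC7A6, another partner of SLC3A2 (58 and 34, 0.19).

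Of 20 genes of the amino acid response, 13 were tested, with a median log2 ratio of 0.03. Of these, 1 passed 2-fold towards PDCD4 and 3 towards IgG, beside 16.4% and 16.1% of all genes. The largest sum was in DDIT4, a stress-induced inhibitor of mTORC1, with 128 and 34 cDNAs (1.31, 0.79 to 1.94) and 6 PDCD4 sites above 5 cDNAs. EIF2AK4, the kinase GCN2 that senses uncharged tRNA, had 52 and 34 cDNAs (0.03), and ALDH1L2, a mitochondrial folate enzyme, had 41 and 22 (0.30). The 3 genes on the IgG side were ATF4, the transcription factor of the response, with 0 PDCD4 and 24 IgG cDNAs, and the serine synthesis enzymes PSAT1 with 17 and 62 and PHGDH with 8 and 15.

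Of 26 genes of mTORC1 and its upstream control, 11 were tested. TSC2, a subunit of the GTPase activator that inhibits RHEB (75 and 12 cDNAs, 1.98, 1.19 to 3.09), passed 2-fold towards PDCD4, RHEB itself (23 and 32, -1.03) passed it towards IgG, and the median was 0.42. RPTOR had the largest sum, with 202 and 160 cDNAs (-0.23), followed by the kinase MTOR with 100 and 50 (0.42).

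In the whole data set, the genes with a pair of shares near that of SLC7A5, by Euclidean distance of log2 cDNAs per 10000 over the 2 lists, included AHNAK (1013 and 273 cDNAs, distance 0.361) and KRT7 (808 and 267, 0.514).

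Most of the member sites could be placed at 1 position. The 30 nt that follow the site occurred once in the genome for 576 of 594 PDCD4 and 300 of 327 IgG sites. With only these sites, the log2 ratio was 1.01 for SLC7A5, 2.50 for its intron 2 (327 and 38 cDNAs) and 1.00 for SLC3A2, and the other members differed by less than their intervals. The list totals were not restricted in the same way, so these ratios are not over matched totals. No member site carried the label of a second gene. SLC7A5 had 7 positions and SLC38A1 had 2 that are listed in both immunoprecipitations, so the lists as deposited do not show a complete subtraction of IgG positions in these genes.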

How the data were processed

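The authors mapped iCLIP reads to the Ensembl GRCh38 genome, called crosslink sites with iCount and deposited, for PDCD4 and for IgG, 1 list of sites with a raw cDNA count per 1-nt site, replicates merged. Sites that failed their FDR filter are left out of the lists. Per the methods, positions found with IgG were subtracted from each PDCD4 replicate ahead of peak calling, which would lower PDCD4 values at shared positions, and scores were filtered at above 5, a step that the deposited counts do not include. Some positions are nevertheless in both deposited lists, so how far the subtraction reached these files is not known.

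Here, counts were summed per gene by exact symbol and divided by the list total. Log2 ratios had 1 cDNA added, with exact conditional binomial 95% intervals for counting error that were computed without the added cDNA. Differences between log2 ratios of genes or introns were taken without the added cDNA, with normal-approximation 95% intervals for counting error. Shares had Wilson and densities exact Poisson intervals. Genes and introns with fewer than 20 cDNAs over both lists were not tested for fold. Regions came from GENCODE release 44, with coding sequence ranked first, then the 3′UTR, 5′UTR, non-coding exons and introns; exons and introns were numbered on MANE Select transcripts. Named genes were the members, the 3 largest PDCD4 sums of each further list, the 3 genes nearest SLC7A5 and the highest site of each member; other sites, introns and the genes past 2-fold were named after their values were seen. Some genes and sites within these rules are not reported here. Members and lists were chosen with earlier results of these data known. Alternatives were score thresholds, numbers of sites, shared positions, totals, exonic sites, pseudocount, region order, uniqueness of sequence and leaving out SLC7A5 or its intron 2. The gene ratio was tested on simulated data. The software was scipy 1.17.1, pandas 2.3.3, numpy 2.4.6 and matplotlib 3.10.9 under Python 3.11.15.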

Additional observations from a re-analysis of the deposited data

How the results depend on the processing

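No paired analysis was possible because each list merges its replicates, and for the same reason no replicate could be left out. Of 101 recalculated values, 81 stayed within the interval or count of the value reported. No interval wholly on 1 side of 0 moved wholly to the other side. However, the interval of the 7 genes together came to include 0 without SLC7A5, for exonic sites and at scores above 10. The interval of SLC7A5 came to include 0 in the last 2 of these settings. By numbers of sites, those of SLC3A2 (-0.35 to 1.46), SLC38A1 (-0.81 to 0.09) and SLC38A2 (-1.76 to 0.07) came to include 0. The interval of SLC3A2 also did so at scores above 5. The log2 ratio of the 7 genes together was -0.11 without SLC7A5, 0.87 at scores above 5, -0.12 for exonic sites over the exonic total and 0.19 without intron 2 of SLC7A5. That of SLC7A5 was 0.063 for exonic sites and 0.56 without intron 2. At scores above 10, both were -1.02, from 25 PDCD4 cDNAs and 0 IgG cDNAs, where the added cDNA set the value. Genes above 2-fold numbered 3 of 5 at scores above 5 (27.5% of 1525 genes), each with 0 IgG cDNAs there, where SLC38A1 was at -1.96 (-3.86 to -0.05) with 6 cDNAs in each list. They numbered 1 without positions shared by the lists (16.5% of 7299 genes) and 2 with sites followed by 30 nt that occur once in the genome, for which the share over all genes was not computed. That last alternative kept the full list totals, repeated sites included. This alternative and the one without intron 2 were chosen after the data were seen. The share of member sites in coding sequence was 9.93% in the PDCD4 list with 3′UTR taken first and 0 at scores above 10 (of 2 sites), and 0 in the IgG list at scores above 5 (of 5 sites). Depth limits SLC1A5, SLC7A11 and SLC3A2 most, with 61, 70 and 126 cDNAs over both lists.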

Other observations

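In the spliced exons of SLC7A5 and the other 6 genes that precede an intron, the PDCD4 list had 4 sites in the last 60 nt before the 5′ splice site and 79 in the rest of these exons, which is 0.866 and 9.80 sites per kb. The IgG list had 2 and 27 sites, 0.433 and 3.35 per kb. The lower density before the exon end was thus present in both immunoprecipitations, and its cause was not tested.

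Sites of the 7 genes merged within 20 nt formed 134 clusters in SLC7A5, 73 in SLC7A1, 68 in SLC38A1, 25 in SLC3A2, 21 in SLC7A11, 17 in SLC38A2 and 8 in SLC1A5. The cluster of SLC7A5 with the most cDNAs lay in its 3′UTR (chr16:87830282-87830343), with 41 PDCD4 cDNAs at 13 sites and 20 IgG cDNAs within 20 nt. The coding cluster at the exon 1 site (chr16:87869234-87869252) had 21 PDCD4 cDNAs at 5 sites, and an intronic cluster in intron 8 (chr16:87835593-87835615) had 20 at 5 sites, both with 0 IgG cDNAs within 20 nt.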
